A study of Homo sapiens with 4 samples.

Results

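The comparison set 1 A-seq library of HEK293 cells treated with an siRNA against CF Im 68 beside 1 library of HEK293 cells treated with a control siRNA, and it used these 2 of the 4 libraries of the series. HEK293 is an established human embryonic kidney line. The control siRNA is given in the labels as scrambled-A, and both siRNAs were delivered with Lipofectamine RNAiMAX and the cells harvested after 3 days. A library from HEK293 cells with no siRNA served as background, since its difference from the control siRNA library shows how far 2 libraries without a depletion lie apart, the effect of the control treatment included. The last library, from cells with an siRNA against CstF-64, took part in the choice of sites and is otherwise not compared here. Each group had 1 library, so no value below has a replicate error. The extent of the depletion was not analysed here, because the gene of the targeted protein and the markers of the cell line could not be placed on the coordinates of the files, which carry no gene names. All loci are therefore named by chromosome, strand and position on hg19.

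Most human genes can end their transcripts at more than 1 poly(A) site. Cleavage factor I, a part of the 3′ end processing complex, binds UGUA elements upstream of the cleavage position. It is built from a small subunit that contacts the RNA and from larger subunits, of which CF Im 68 is one. Where alternative sites lie in the same terminal exon, use of the proximal site, the one nearer the start of the transcript, gives a shorter 3′ untranslated region than use of the distal site. The question of the comparison was how depletion of CF Im 68 bears on the choice between such sites. The depletion rests on a single duplex, whose strand is shown as the labels give it, since it is the only reagent that defines the depleted group. Capital N marks the 2 positions left unspecified, ahead of 19 specified bases.
CF Im 68 siRNA: NNgaccgagauuacauggaua

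The library totals were 13443454 reads with control siRNA, 12792623 with CF Im 68 siRNA and 15806975 without siRNA. Read 3′ ends were grouped within 25 nt into 33723 sites in 18156 loci, a locus being the most used site and all sites of its strand within 10000 nt. A locus can thus hold parts of more than 1 gene. Ends made by priming of oligo-dT on A-rich stretches inside a transcript (internal priming) were not separated from true ends. Poly(A) selection and read counting see only relative amounts, so that fewer cells with a transcript and less of it per cell cannot be told apart.

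Proximal sites were used more with CF Im 68 siRNA. In each locus the 2 most used sites were paired, and their reads were split into a proximal share, that of the more 5′ site, and the rest. Over the 4793 loci whose pair reached 50 reads in all libraries, the quartiles of the proximal share were 16.8 and 72.2% with control siRNA, 16.8 and 72.2% without siRNA, and 25.4 and 77.6% with CF Im 68 siRNA. A locus was called as moved when a two-sided Fisher's exact test on the reads of the 2 libraries gave a Benjamini-Hochberg adjusted p below 0.05 over all tested loci and the share differed by at least 10 percentage points. This test compares 2 libraries and not 2 conditions. With CF Im 68 siRNA, 1466 loci (30.6%) were called toward the proximal site and 207 (4.32%) toward the distal site. The no siRNA library, set against the same control siRNA library, gave 531 (11.1%) and 510 (10.6%). Both comparisons share the control siRNA library, so they are not independent of each other. The depleted libraries took part in choosing the sites. With sites chosen on the no siRNA library alone, 1174 of 4455 loci were called toward the proximal site.

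The whole distribution of changes lay higher than between the controls. The median change was 4.84 points with CF Im 68 siRNA and −0.217 points without siRNA. The quartiles were −0.837 and 12.8 points with CF Im 68 siRNA, and −4.99 and 5.03 points without siRNA. The 5% and 95% points of the distribution were −10.1 and 31.3 points, against −15.6 and 15.6 points. The share was above that with control siRNA in 71.6% of loci, against 48.5% without siRNA. The proximal share was at least 20 points higher in 636 loci (13.3%) and at least 20 points lower in 49 (1.02%). Without siRNA these counts were 116 (2.42%) and 129 (2.69%). At 40 points or more, 105 loci (2.19%) were higher and 6 (0.125%) lower with CF Im 68 siRNA. Without siRNA, 2 loci (0.0417%) were higher and 2 (0.0417%) lower by that much. On the plus strand the median change was 4.91 points in 2454 loci and on the minus strand 4.77 points in 2339 loci, with overlapping intervals (4.48 to 5.29 and 4.30 to 5.30).

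**Figure D1:**
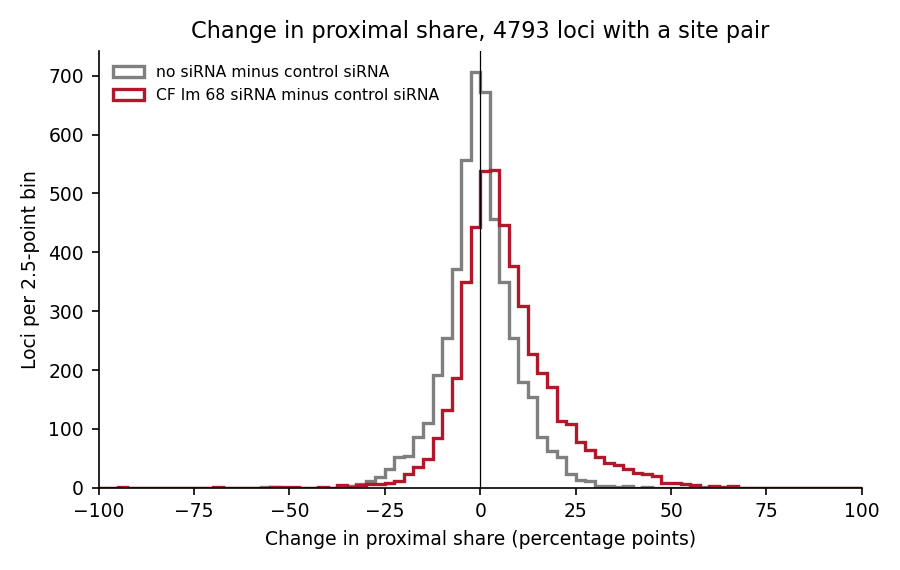
Number of loci by change in proximal share, in percentage points against the control siRNA library, for the CF Im 68 siRNA library and for the no siRNA library, in the same 4793 loci. The no siRNA curve is centred near 0, and the CF Im 68 curve is shifted to the right and extends further there, with 636 loci at 20 points or more against 116.

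The size of the change depended on how much the proximal site was used to begin with. Loci were classed here by their share in the no siRNA library, which is not one of the compared libraries but did take part in the choice of sites. Loci with 25 to 50% proximal use had the largest median change of the classes, 8.69 points (95% order-statistic interval 7.79 to 9.67, n = 1030), and 43.0% of them were called toward the proximal site. Below 10% the median change was 6.42 points (5.66 to 7.55, n = 733), and the median share was 7.48% with control siRNA and 14.9% with CF Im 68 siRNA. At 50 to 75% it was 5.25 points (4.60 to 6.21, n = 1021), and at 75 to 90% it was 2.21 points (1.59 to 2.69, n = 718). At 90% or more it was 0.0 points (−0.445 to 0.409, n = 365), and there a share has little room to rise. The no siRNA library differed from control siRNA by −1.81 points in the lowest and by 2.14 points in the highest class, the direction that classing on that library itself gives.

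The deepest loci changed least. In the 1127 pairs with 100 to 199 reads in the shallower library the median change was 5.88 points (5.18 to 6.91), in the 440 pairs with 1000 to 1999 reads it was 3.75 points (3.07 to 4.92), and in the 75 pairs with at least 5000 reads it was 1.43 points (0.420 to 3.58). The median distance between the sites was also smaller in the deepest pairs, at 630 nt against 1194 nt in the pairs of 100 to 199 reads. Loci with more than 2 used sites changed more: the median was 3.81 points with 2 sites (3.47 to 4.13, n = 2583), 6.08 points with 3 sites (5.37 to 6.98, n = 1330) and 7.74 points with 4 sites (5.85 to 8.85, n = 575).

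The deepest called loci give the most precise shares. At chr10:85912301/85912931 (plus strand), 630 nt apart, the proximal site held 18.3% of 9335 pair reads without siRNA, 17.8% of 7207 with control siRNA and 53.8% of 6789 with CF Im 68 siRNA (exact Clopper-Pearson 95% interval 52.6 to 54.96). Both controls lay within 1 point of each other, and the more used site of the locus changed. The 2 sites moved in opposite directions there, the proximal one from 95.4 to 285.3 RPM (reads scaled to a common library total, with a factor of 1000000) and the distal one from 440.7 to 245.4 RPM, while the locus total differed by −0.03 on the log2 scale.

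The pair at chr1:245017717/245016691 (minus strand) had a proximal share of 52.2% of 5489 reads without siRNA, 59.1% of 4542 with control siRNA and 86.2% of 8578 with CF Im 68 siRNA (85.4 to 86.9). Its proximal site went from 199.7 RPM with control siRNA to 577.8 RPM and its distal site from 138 to 92.8 RPM. Here the gain of the proximal site exceeded the loss of the distal site, and the locus total was 0.67 higher on the log2 scale.

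Other deep loci started from a little used proximal site. The site at chrX:118377387 (plus strand) held 4.88% of its pair with 118378429 without siRNA, 4.82% with control siRNA and 17.7% with CF Im 68 siRNA (16.8 to 18.6). The site at chr9:88642615 (minus strand) held 4.28%, 6.69% and 18.4% (17.5 to 19.4) of its pair with 88641062 in the same order. The site at chr17:48460036 (minus strand) held 8.21%, 7.36% and 18.1% (17.1 to 19.0) of its pair with 48458600. In these 3 loci the controls lay within 3 points of each other, and the distal site kept most of the reads with CF Im 68 siRNA.

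In 3 of the deepest called loci the controls differed from each other by about as much as the compared libraries. At chr17:49239396/49249105 (plus strand), 9709 nt apart, the proximal share was 45.4% without siRNA, 33.1% with control siRNA and 43.5% with CF Im 68 siRNA. At chr19:2273238/2273487 (plus strand) it was 90.8%, 81.2% and 92.6%. In both loci the CF Im 68 library lay beside the no siRNA library. At chr2:217070147/217071004 (plus strand) the share was 14.7% without siRNA, 28.4% with control siRNA and 44.5% with CF Im 68 siRNA, so that control siRNA lay between the others. With 1 library per group, the test has no measure of such differences between cultures.

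At other deep proximal loci the controls differed by less. At chr22:42070820/42069938 (minus strand) the share was 58.5% without siRNA, 56.2% with control siRNA and 68.8% with CF Im 68 siRNA (67.7 to 70.0). At chr17:40993750/40995257 (plus strand) it was 16.9%, 11.6% and 22.0% (21.1 to 23.03), so that the value with CF Im 68 siRNA lay closer to the no siRNA than to the control siRNA value.

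On the log2 scale, gain at the proximal site was larger than loss at the distal site. The proximal site was at least 1.5-fold higher in RPM plus 1 with CF Im 68 siRNA in 1629 of the 4793 loci (34%), against 392 (8.18%) without siRNA. The distal site was at least 1.5-fold lower in 775 loci (16.2%), against 969 (20.2%) without siRNA. In the 1466 loci called toward the proximal site, which the call itself selects, the median log2 difference in level was 0.998 at the proximal site (0.96 to 1.06) and −0.35 at the distal site (−0.38 to −0.33). Of these loci, 902 (61.5%) had a proximal site at least 1.5-fold higher without a distal site 1.5-fold lower, 248 (16.9%) had the reverse, and 190 (13.0%) had both. The same loci differed by −0.12 at the proximal and −0.17 at the distal site without siRNA. In the 207 loci called toward the distal site, the median difference was −0.49 at the proximal and 0.59 at the distal site.

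The distance between the sites went with the change. The median change was 0.37 points (−0.526 to 0.984, n = 204) for sites 26 to 50 nt apart, which may be parts of 1 broad site, and 3.50 points (2.78 to 4.31, n = 331) at 51 to 100 nt. Sites 501 to 1000 nt apart had a median of 7.03 points (6.04 to 7.93, n = 676), those 1001 to 2000 nt apart 8.39 points (7.46 to 9.54, n = 884) and those 2001 to 3000 nt apart 8.57 points (6.94 to 10.3, n = 517). Beyond 5000 nt it was 1.51 points (0.990 to 2.55, n = 589), and there the 2 sites can belong to different genes. The no siRNA library differed from control siRNA by between −0.802 and 0.662 points in the 9 distance classes.

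**Figure D2:**
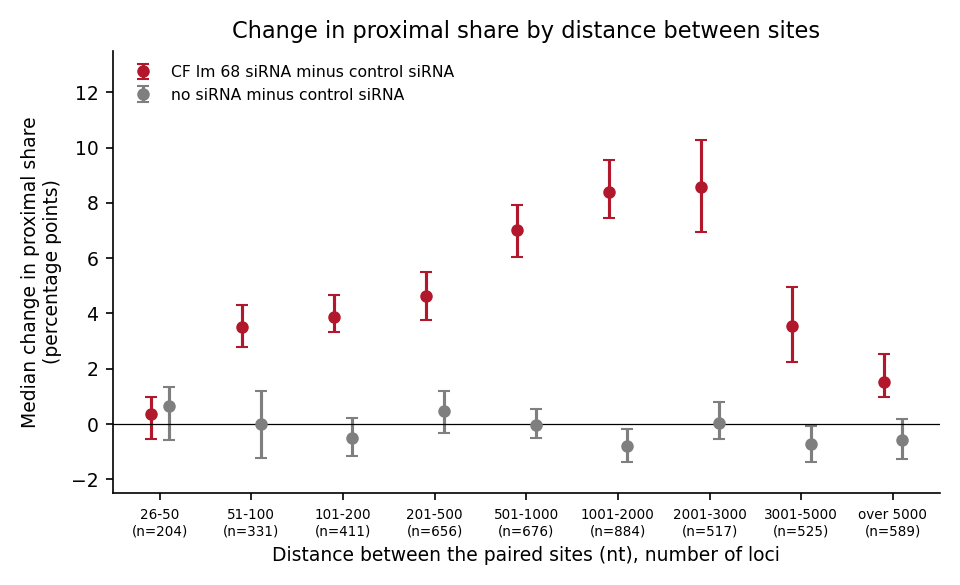
Median change in proximal share against the control siRNA library (percentage points, with 95% order-statistic intervals) by the distance between the paired sites in nt, for the CF Im 68 siRNA and the no siRNA libraries. The CF Im 68 values go from 0.37 points at 26 to 50 nt up to 8.57 points at 2001 to 3000 nt and down to 1.51 points beyond 5000 nt, and the no siRNA values stay within 1 point of 0.

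The most used site of a locus changed in 747 of 4984 loci with at least 2 used sites (15%). It became a more 5′ site in 650 loci (13%) and a more 3′ site in 97 (1.95%). Without siRNA it differed from control siRNA in 479 loci (9.61%), toward the 5′ side in 253 (5.08%) and toward the 3′ side in 226 (4.53%). The median step to a 5′ site was 1642 nt with CF Im 68 siRNA and 1177 nt without siRNA. The site at chr1:6245092 (minus strand) led with 60.3% of locus reads without siRNA and 59.2% with control siRNA, and the site 1187 nt upstream at 6246279 led with 56.1% with CF Im 68 siRNA. The site at chr2:10923519 (minus strand) led with 68.3% and 58.4% in the controls, and that at 10923987 with 51.7% with CF Im 68 siRNA.

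At other deep changes of the most used site the controls lay apart, or the sites were close to each other in use. At chr19:38874464/38874115 (plus strand), the 2 sites were nearly equal in all of these libraries, and the upstream one had 49.5% without siRNA, 49.9% with control siRNA and 51.3% with CF Im 68 siRNA. At chr10:73576300 (minus strand), the share was 60.6% without siRNA, 39.2% with control siRNA and 51.3% with CF Im 68 siRNA. At chr17:73132084 (minus strand), 5760 nt upstream of 73126324, it was 44.5%, 34.8% and 66.1%, and that site already led without siRNA. At chr3:23961043 (plus strand) it was 46.4%, 30.1% and 50.3%. In 1 locus the lead went to a site 223 nt downstream, at chr19:41813505 (plus strand), whose share was 29.5%, 32.8% and 35.9%.

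In loci with several sites the level itself was graded from the 5′ to the 3′ side. Sites were chosen on all 4 libraries, so a site can have entered a locus through its level with CF Im 68 siRNA. The differences below can partly follow from that choice. They were not recomputed with sites chosen on the no siRNA library alone. Over the 245 loci with 5 used sites, the median log2 difference in level with CF Im 68 siRNA was 0.82 (0.69 to 1.01) at the most 5′ site, then 0.41, −0.02 and −0.19, and −0.20 (−0.30 to −0.12) at the most 3′ site. The most 5′ site had the most reads in 15.1% of these loci with control siRNA, 14.7% without siRNA and 32.7% with CF Im 68 siRNA. Over the 1426 loci with 3 sites the differences were 0.54, 0.09 and −0.15. Without siRNA the sites of the loci with 3 sites differed by between −0.12 and −0.10. Those of the loci with 5 sites differed by between −0.12 and −0.04.

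The deepest loci with 5 or more sites show the form of the change. The most 5′ site at chr17:57189432 (minus strand) had 4.50% of locus reads without siRNA, 5.20% with control siRNA and 22.1% with CF Im 68 siRNA. The 2 most 3′ sites of that locus, at 57187367 and 57187316, together held most reads in each control, and had 32.6% and 28.6% with CF Im 68 siRNA against 44.9% and 36.3% with control siRNA. The most 5′ site at chr14:21679097 (minus strand) had 28.0%, 29.95% and 40.5% in the same order as above. The most 5′ site at chr12:93895099 (plus strand) had 4.74%, 5.44% and 12.5%, and the next, 93895164, had 19.7%, 14.5% and 32.3%. The site at chr17:73774632 (minus strand) had 14.4%, 11.6% and 36.2%, but the next site, 73774332, had 26.9% without siRNA and 13.8% with control siRNA, so the controls differed there as well.

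Reads also spread over slightly more sites. The effective number of sites, which is 1 when a single site holds all reads and equals the number of sites when they are used equally, had a median of 1.72 with control siRNA and 1.80 with CF Im 68 siRNA. The median change was 0.031 (0.022 to 0.041) and, without siRNA, −0.016 (−0.022 to −0.011). The read-weighted mean distance of the ends from the most 5′ site was shorter by at least 1000 nt in 254 of 4984 loci (5.1%) and longer by as much in 39 (0.783%). Without siRNA the counts were 53 (1.06%) and 66 (1.32%).

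Upstream ends were also in excess when all nuclear reads were counted, those of the paired sites included. Around the main site of 11523 loci, taken as the most used site of the no siRNA library, all nuclear reads were placed by their distance to the nearest such site. The window from 50 nt before to 50 nt after the main site held 85.4% of nuclear reads without siRNA, 82.3% with control siRNA and 78.8% with CF Im 68 siRNA. At 2001 to 3000 nt upstream the reads made up 0.419%, 0.499% and 1.04%, a ratio of 2.09 between CF Im 68 siRNA and control siRNA. Farther upstream the ratio was 1.52 in the window 3001 to 5000 nt and 1.28 beyond it, and nearer the main site it was 1.83 for the window 1001 to 2000 nt upstream, 1.69 for 501 to 1000 nt, 1.38 for 201 to 500 nt and 1.25 for 51 to 200 nt. Downstream of the main site it lay between 0.887 and 1.08. Because the main site was picked as the highest of the no siRNA library, that library is higher in the central window by construction.

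**Figure D3:**
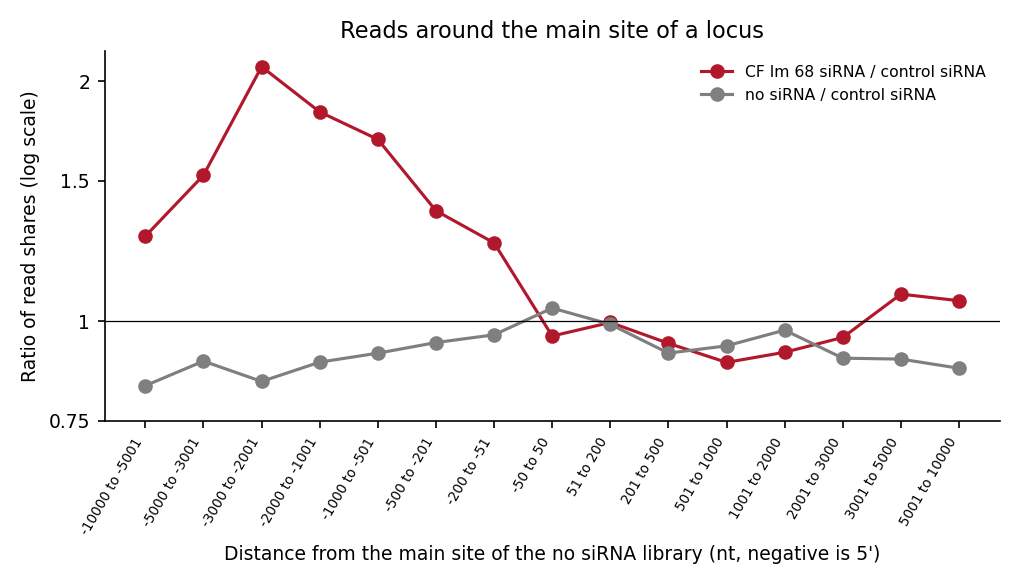
Ratio of the percentage of reads in each distance window from the main site of a locus (nt, upstream negative) to that in the control siRNA library, for the CF Im 68 siRNA and the no siRNA libraries, over 11523 loci. The CF Im 68 ratio reaches 2.09 at 2001 to 3000 nt upstream and stays between 0.887 and 1.08 downstream.

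The same was seen locus by locus. Among 10612 loci with at least 50 reads in each of the 3 libraries, the share of reads over 50 nt upstream of the main site averaged 10.5% without siRNA, 11.4% with control siRNA and 16.1% with CF Im 68 siRNA. It was at least 5 points higher than with control siRNA in 3197 loci (30.1%) and at least 5 points lower in 430 (4.05%). Without siRNA these counts were 749 (7.06%) and 1404 (13.2%). The main site was picked on the no siRNA library, which by construction favours lower shares on either side of it in that library. The share of reads downstream of the main site was at least 5 points higher in 620 loci (5.84%) and lower in 1509 (14.2%) with CF Im 68 siRNA, against 745 (7.02%) and 1129 (10.6%) without siRNA. Loci with a single used site, which the pairs leave out, had a mean upstream share of 2.94% without siRNA, 3.40% with control siRNA and 4.88% with CF Im 68 siRNA. The median change with CF Im 68 siRNA was only 0.005 points (0 to 0.036), against −0.113 points without siRNA. With CF Im 68 siRNA the share was higher in 50.2% of these loci and lower in 42.7%, so the typical locus hardly changed. Of 5036 such loci, 648 (12.9%) had an upstream share at least 5 points higher with CF Im 68 siRNA and 131 (2.6%) at least 5 points lower. Without siRNA 145 (2.88%) were higher and 228 (4.53%) lower.

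Some sites were nearly unused in the control. Of 25376 sites with at least 50 reads in the 2 libraries, 532 (2.1%) were at least 10-fold higher with CF Im 68 siRNA in RPM plus 0.1, and 169 (0.666%) at least 10-fold lower. Without siRNA, 86 of 24642 sites (0.349%) were higher and 167 (0.678%) lower. Many of these sites were stacks, a single position with 99% or more of the site's reads and 1 library with 99% or more of its RPM, namely 198 of the 532 and 153 of the 169, and what produced such stacks of reads was not tested. Of the 334 sites higher without that form, 285 (85.3%) lay upstream of the main site of their locus and 11 downstream, whereas 24.9% of all 25025 such sites tested lay upstream and 18.2% downstream. The 285 upstream sites, in 244 loci, lay a median of 2130 nt before the main site (quartiles 1338 and 3345 nt). Their median level was 0.443 RPM without siRNA, 0.372 RPM with control siRNA and 7.58 RPM with CF Im 68 siRNA. Sites were kept at an average of at least 1 RPM over the 4 libraries. Many of these sites can thus have entered through their level with CF Im 68 siRNA, and their number and levels depend on that choice. They were not recounted with sites chosen on the no siRNA library alone. Of the 334, 257 were also at least 10-fold higher than in the no siRNA library, and 219 of these lay upstream.

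By the number of reads, the site at chr11:130013693 (plus strand), 1007 nt upstream of its main site, led this set among upstream sites. It had 20.3 RPM without siRNA, 15.0 RPM with control siRNA and 205.1 RPM with CF Im 68 siRNA, spread over 24 positions. The site at chr10:58117819 (minus strand), the main one of its locus, had 33.9 RPM, 18.5 RPM and 202.5 RPM in the same order. The other 4 of the 6 deepest sites in this direction were stacks. The following examples, among the deepest upstream sites that were not stacks, were picked after their values were seen. At chr6:89872008 (plus strand), 3276 nt upstream of the main site, the levels were 4.37, 2.75 and 70.6 RPM. At chr6:109689853 (minus strand), 2130 nt upstream, they were 1.52, 4.46 and 56.1 RPM. At chr12:4409378 (plus strand), 5139 nt upstream, they were 5.38, 6.77 and 69.5 RPM. In each of these sites both controls were far below the CF Im 68 library.

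Moves toward the distal site were fewer than between the controls, 207 against 510. With the no siRNA library as the control, 426 loci were called toward the distal site. Among the 10 deepest of the 207 loci called against control siRNA, the pair at chr14:102551279/102547931 (minus strand) had the largest change. Its proximal share was 96.2% without siRNA, 96.0% with control siRNA and 44.2% with CF Im 68 siRNA (42.3 to 46.1). Its distal site had 10.4 RPM, 7.44 RPM and 117 RPM in the same order, and its proximal site 265.3, 180.3 and 92.6 RPM. The pair at chr12:104341165/104341704 (plus strand) had a proximal share of 14.4% without siRNA, 14.9% with control siRNA and 3.51% with CF Im 68 siRNA (2.87 to 4.24). The pair at chr16:767479/772590 (plus strand) had 77.0%, 80.4% and 63.7% (62.6 to 64.9), with a proximal site of 324.6 RPM against 663.9 RPM with control siRNA and a distal site of 184.6 against 161.5 RPM. The pair at chr3:49396930/49396581 (minus strand) had 53.7%, 48.4% and 31.5% (30.2 to 32.7). The pair at chr5:176869058/176869622 (plus strand) had 50.7%, 55.3% and 39.3%, and the pair at chr20:35869794/35870021 (plus strand) had 27.4%, 30.6% and 16.3%. In these 6 loci the controls lay within 6 points of each other, and the CF Im 68 library lay below both.

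At 3 other distal loci the controls were more than 6 points apart, and the CF Im 68 library again lay below both. The pair at chr16:88874918/88875663 (plus strand) had a proximal share of 81.5% without siRNA, 69.8% with control siRNA and 56.9% with CF Im 68 siRNA. The pair at chr5:179157458/179157927 (plus strand) had 36.3%, 29.5% and 13.9%, and the pair at chrX:107972538/107963177 (minus strand), 9361 nt apart, had 33.8%, 25.7% and 14.6%. In all 3 the control siRNA value lay between the other libraries.

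Some of the deepest loci changed little. At chr14:104378854/104378626 (minus strand), 228 nt apart, the proximal share was 85.6% of 50257 reads without siRNA, 83.9% of 38768 with control siRNA and 82.9% of 23482 with CF Im 68 siRNA. The locus total there was lower by 0.65 on the log2 scale. At chr17:37360921/37360981 (plus strand) the share was 18.4%, 10.5% and 10.9%, and at chr17:4848952/4840608 (minus strand) it was 39.2%, 54.2% and 55.5%. In both of these the no siRNA library lay apart from the siRNA libraries. That the siRNA libraries lay together follows from the choice of these loci, deep ones changed by under 2 points. At chr3:197682688/197682720 (plus strand), 32 nt apart, it was 44.3%, 40.4% and 40.8%.

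Locus totals were higher where the proximal share had risen most. No test was run on totals, which are given as log2 differences of RPM plus 1. RPM was scaled by all reads, of which 1.53% with control siRNA and 3.75% with CF Im 68 siRNA were mitochondrial. The median difference was 0.27 (0.23 to 0.29) in the 1466 loci called toward the proximal site, 0.08 (0.06 to 0.10) in tested loci that were not called, −0.03 (−0.04 to −0.01) in 11316 loci with 1 used site and 0.02 in all 17877 loci. Without siRNA the same classes differed from control siRNA by −0.14, −0.09, −0.11 and −0.11. The 207 loci called toward the distal site had a median of 0.10 (0.03 to 0.16), and of −0.10 without siRNA. By the size of the change in share, the median total was 0.18 higher at 10 to 20 points (0.15 to 0.21, n = 902), 0.28 higher at 20 to 30 points (0.20 to 0.33, n = 365), 0.40 higher at 30 to 40 points (0.29 to 0.50, n = 166) and 0.90 higher at 40 points or more (0.78 to 1.07, n = 105). In that last class 95.2% of loci had a higher total than with control siRNA, and the median was 1.22 higher than without siRNA. Share and total come from the same reads, and the no siRNA library differed from control siRNA by −0.29 in that class.

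**Figure D4:**
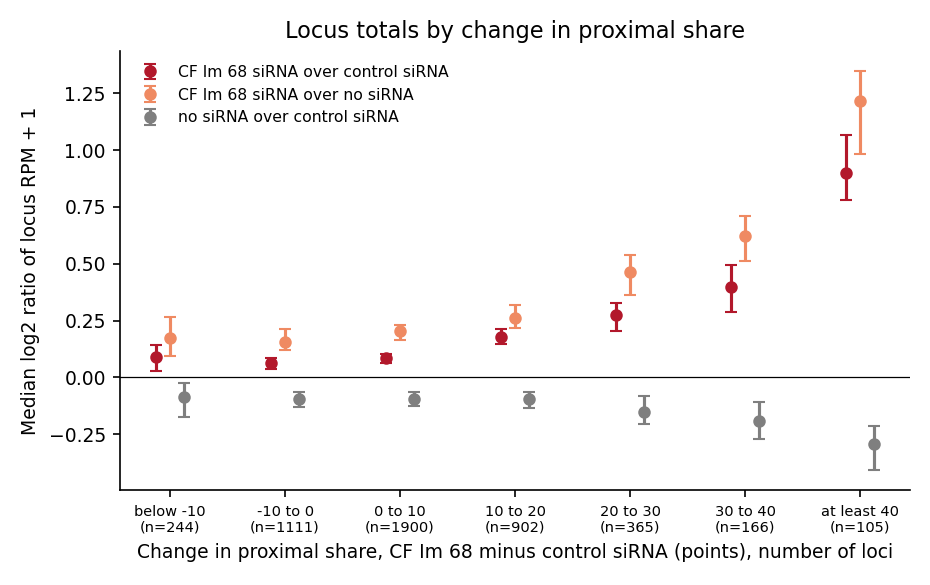
Median log2 difference in locus total (RPM plus 1) from the control siRNA library by the change in proximal share with CF Im 68 siRNA (percentage points), for the CF Im 68 siRNA and the no siRNA libraries, with 95% order-statistic intervals. The CF Im 68 values are 0.09 below −10 points, 0.06 at −10 to 0 points and 0.90 at 40 points or more. The no siRNA values lie below 0 in every class.

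Over all loci, 1108 of 17877 totals (6.2%) were at least 2-fold higher with CF Im 68 siRNA and 795 (4.45%) at least 2-fold lower. Without siRNA, 349 (1.95%) were higher and 929 (5.2%) lower. Set against the no siRNA library in place of control siRNA, 2303 of the 17877 totals were at least 2-fold higher and 1103 at least 2-fold lower. Of the 1466 loci called toward the proximal site, 137 (9.35%) were at least 2-fold higher and 11 (0.75%) lower. Among all 6561 loci with 2 or more used sites, 398 (6.07%) were higher and 114 (1.74%) lower. Of loci below 2 RPM without siRNA, 12.6% were higher and 6.59% lower, against 1.41% and 1.93% of those at 100 to 500 RPM. Sites were chosen on all 4 libraries, so a locus this low can have entered through its level in another library. The rates in this class can partly follow from that choice. The 8 largest rises and the 8 largest falls among loci with at least 200 reads were all stacks at 1 position of 1 library. At chr17:582754 (plus strand), for example, 2433 reads were counted with CF Im 68 siRNA and 0 in the other libraries. At chr19:32925565 (plus strand), 12213 reads were counted with control siRNA and 0 in the no siRNA and CF Im 68 libraries. Such main sites made up 16.5% of the higher and 17.9% of the lower loci. Without them 925 of 17366 loci (5.33%) were higher and 653 (3.76%) lower.

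Beyond the stacks, and picked after their values were seen, the locus at chr2:12439939 (minus strand) had 1.52 RPM without siRNA, 4.98 RPM with control siRNA and 58.2 RPM with CF Im 68 siRNA. The locus at chr12:63983167 (plus strand) had 0.696, 0.149 and 15.9 RPM, and that at chr15:62013061 (minus strand) had 2.53, 4.02 and 35.3 RPM. In these 3 loci both controls were low. Among the lower loci, the one at chr12:5863900 (minus strand) had 50.3 RPM without siRNA, 51.1 RPM with control siRNA and 0.156 RPM (2 reads) with CF Im 68 siRNA. Both controls were close there, and 99.1% of the reads of its main site were at 1 position. The one at chr13:77322893 (minus strand) had 32.5 RPM without siRNA, 78.2 RPM with control siRNA and 11.4 RPM with CF Im 68 siRNA. The one at chr5:97347024 (plus strand) had 11.6, 20.6 and 3.36 RPM, and the controls differed in these last 2 loci.

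Reads outside the sites, at positions too rarely used to form one, made up 4.68% of nuclear reads without siRNA, 6.21% with control siRNA and 6.93% with CF Im 68 siRNA. Their increase over control siRNA depended on where they lay. At 101 to 1000 nt upstream of a site they were 1.55 times as frequent per nuclear read as with control siRNA, and at 1001 to 10000 nt upstream 1.31 times. Downstream the ratios were 1.12 and 1.10 at the same distances, and with no site within 10000 nt the ratio was 1.03. The no siRNA library had ratios of 0.835 and 0.739 upstream and 0.698 far from any site.

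Cleavage within a site changed little. In 9969 sites with at least 100 reads in both libraries, the SD of the read end positions had a median of 2.68 nt with control siRNA and 2.59 nt with CF Im 68 siRNA. The median change was −0.050 nt (−0.057 to −0.042), and in the no siRNA library it was 0.016 nt (0.010 to 0.023). The most used position was the same in 93.5% of sites, against 92.9% without siRNA.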

How the data were processed

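The labels' protocols describe purification of polyadenylated RNA on oligo-dT beads, partial RNase I digestion and reverse transcription from an anchored oligo-dT primer, so that a read end marks the junction with the tail. The deposited values were raw read counts per 3′ end position and strand, not normalized by the authors. The build was hg19 (GRCh37), as the submitters' processing notes say, and positions are counted from 1. Which aligner was used, and how multiple matches and PCR duplicates were treated, is not given in the sources used here. Position numbers of the authors skip 10.2 to 12.2% of the numbers, for a reason no source states, and any position removed that way has no counts here.

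Positions within 25 nt of a local top position on chromosomes 1 to 22 and X formed sites if they averaged at least 1 RPM over the 4 libraries. Used sites held at least 5% of mean locus reads. The depleted libraries took part in these choices. Pair shares were compared by Fisher's exact test (two-sided) with Benjamini-Hochberg adjustment over all tested loci. The 95% intervals (order-statistic for medians, exact Clopper-Pearson for shares) cover counting error or treat loci as independent, and no molecular identifiers were given. Locus totals needed 50 reads over the libraries. Loci were named by rule: the deepest 12 proximal and 10 distal calls, 8 deep loci changed by under 2 points, 8 changes of the most used site, 8 rises and 8 falls of totals, 6 gained and 6 lost sites and 4 loci with 5 or more sites, not all of which are described. The comparison and these rules were chosen with earlier results of these data known. The call was tried on pair reads simulated with counting error only. That simulation cannot show how often differences between cultures lead to a call. Tools were Python 3.11.15, numpy 2.4.6, pandas 2.3.3, scipy 1.17.1 and numba 0.67.0, with edgeR 4.0.16 and DESeq2 1.42.0 in R 4.3.3 for scaling factors only. Gene names, gene lists, sequence features and a check of the targeted gene were not analysed here.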

Additional observations from a re-analysis of the deposited data

Results flagged for a closer look

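The mitochondrial chromosome, whose reads enter the report only through the library totals used for scaling, held more reads after CF Im 68 siRNA than in either control library. Its share of all reads was 1.17% without siRNA, 1.53% with control siRNA (95% interval by the exact Clopper-Pearson method 1.52 to 1.54) and 3.75% with CF Im 68 siRNA (3.74 to 3.76), and the library with CstF-64 siRNA had 1.79%. The reads of the minus strand went from 0.775% after control siRNA to 2.31%, and those of the plus strand from 0.754% to 1.43%. The intervals cover counting error only. With 1 library per group the spread between cultures is unknown, and whether the treatment or the library made the difference was not tested.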

How the results depend on the processing

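No alternative changed the sign of a median change. Proximal calls, higher totals and gained sites stayed more numerous than distal calls, lower totals and lost sites. The count of changes of the most used site and the percentage of reads outside sites have no sign that could turn. No paired analysis was possible because each group had 1 library, and no library could be left out in turn. Leaving out sites next to A-rich genomic stretches was not run, since no GRCh37 genome was used here. The median change in proximal share, 4.84 points, was 3.63 with sites of 10 nt, 5.14 with sites of at least 2 RPM, 3.89 with sites chosen on the no siRNA library alone, 6.06 with sites of at least 10% of the locus, 4.53 with at least 100 reads and 5.23 against the no siRNA library. The median change in mean end distance, −56.8 nt, was −34.0 nt with sites of 10 nt, −46.3 nt with loci of 5 kb and −38.6 nt with sites chosen on the no siRNA library. Proximal calls numbered 636 and distal calls 49 at 20 points, and distal calls were 132 with at least 100 reads and 426 against the no siRNA library. Against the no siRNA library, 2303 totals were 2-fold higher and 1103 lower. At 3-fold, 433 were higher and 259 lower, and a pseudocount of 0.25 RPM gave 1259 lower. The median total change of proximal calls was 0.23 with sites chosen on the no siRNA library, 0.22 with at least 100 reads and 0.31 against the no siRNA library. The change in cleavage spread was −0.026 nt with sites of 10 nt and −0.030 nt with single-read positions left out. Reads outside sites were 7.53% with sites of 10 nt and 8.78% at 2 RPM. Gained sites numbered 295 at 2 RPM and 334 without stacks at 1 position, and lost sites 98 at 2 RPM, 98 against the no siRNA library and 16 without such stacks. Changes of the most used site stayed within 1.5 times their count under all 9 alternatives run. Scaling by TMM or DESeq2 factors moved the median total of all loci from 0.02 to 0. Totals without stacks, an alternative chosen after seeing the data, gave 923 higher and 650 lower. Depth limits the shallow pairs: with 50 to 99 reads the median absolute difference between the controls was 7.57 points.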

Other observations

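The change in proximal share differed in size between chromosomes. The lowest medians were 1.03 points on chromosome 19 (95% order-statistic interval −0.086 to 2.73, 250 loci), 1.27 points on chromosome 16 (−0.393 to 2.78, 201 loci) and 1.97 points on chromosome 22 (0.343 to 4.06, 94 loci). The highest were 8.09 points on chromosome 13 (4.55 to 11.5, 104 loci), 7.83 points on chromosome 4 (5.46 to 10.3) and 7.13 points on chromosome X (3.15 to 10.8, 140 loci). Calls toward the proximal site made up 14.4% of loci on chromosome 19 and 43.3% on chromosome 13. The median distance between paired sites was 1831 nt on chromosome 19 and 1020 nt on chromosome 13. Between the controls, the chromosome medians lay between −1.38 points on chromosome 15 and 0.977 points on chromosome X. The difference between chromosomes was not tested.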
